A study of Mus musculus with 84 samples.

Results

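The vehicle baseline is the nuclear transcriptome of frontal cortex neurons in 4 mice that received vehicle only. It was measured in 8 RNA libraries, 2 per mouse, out of 32 RNA libraries from 16 mice in the series. The members were taken from the sample titles: mouse 1 to mouse 4 of the vehicle group, with the counts of the 2 libraries of each mouse summed. The mice were of the inbred strain 129S6/SvEvTac and were 12 weeks old. Their sex is not among the labels used here. The tissue was the front part of the cortex, 1 piece per preparation. Nuclei were released from it, stained with a fluorescent antibody to NeuN and sorted, and RNA of the NeuN-positive fraction was amplified by SMART-seq2, a full-length cDNA method that primes on poly(A) tails, and made into libraries with Nextera XT. The design text gives 6 mice per group, and the RNA of 4 vehicle mice was analysed here. No mouse treated with DOI, the drug tested elsewhere in the series, and no uninjected mouse enters any value below. The values therefore describe neurons after a vehicle injection, at an interval not given in the labels used here.

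NeuN is the product of Rbfox3, an RNA-binding protein of the nuclei of most mature neurons, so the gate takes in glutamatergic and GABAergic cells together and leaves out most glia. A nucleus holds newly made and spliced transcripts and RNAs that never leave it, such as Malat1 and Meg3, while much of the messenger RNA for ribosomal proteins and all RNA made in mitochondria lies outside it. Cytoplasm that clings to sorted nuclei adds the latter. In bulk RNA, fewer cells of a type and less RNA per cell cannot be told apart.

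Total counts were 11517452, 9151680, 10407880 and 10707446 in mice 1 to 4, and 4480660 to 6694787 in a single library. At least 1 count was found for 24076, 23701, 24893 and 24848 gene IDs per mouse out of 55401. A count of 3, used as the floor of detection, corresponds to 0.260 to 0.328 CPM, the counts-per-million scale in which a gene is a share of the total count of its mouse. The libraries carry no molecular identifiers, so such floors cover counting error only. Libraries of the same mouse correlated at r = 0.984 to 0.987 over log2 CPM of genes, and libraries of different mice at 0.958 to 0.976, which are descriptions across genes and not tests. Each of the 8 libraries was closest to the other library of its own mouse.

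**Figure D1:**
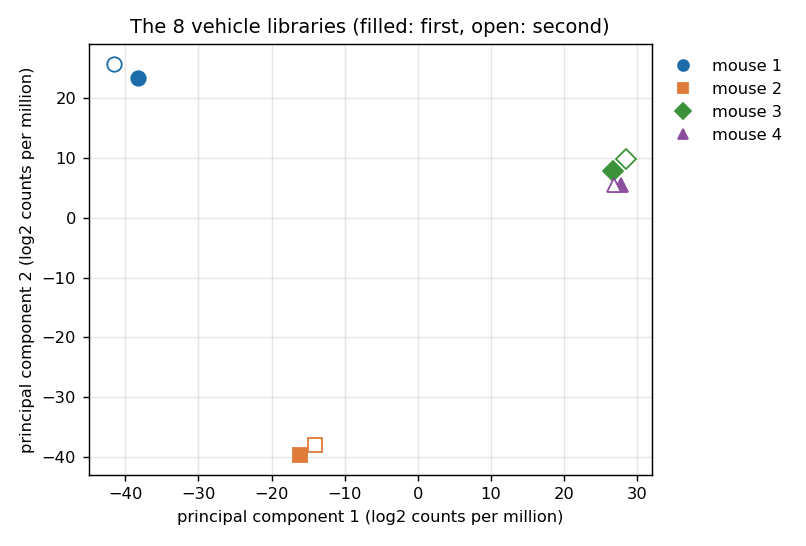
The 8 vehicle libraries on the first and second principal components of log2 CPM, which hold 36.9% and 24.7% of the variance. Filled and open symbols are the first and second library of a mouse. The pairs lie together, mouse 1 is at the left, mouse 2 is at the bottom, and mice 3 and 4 lie close to each other at the right.

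All 14 pan-neuronal markers were counted in every mouse, and their sum was nearly the same in each. They summed to 7961, 8023, 7865 and 7902 CPM, a range of 1.02-fold between the highest and lowest mouse. The members themselves were not even: 13 of 14 were called different among the 4 mice by edgeR's F test over the 8 libraries (92.9%). That share was 61.3% over all genes tested and 90.9% over genes of 100 to 1000 CPM, the range of most of these markers. Snap25, a protein of the vesicle fusion machinery, had 3418, 4107, 3989 and 4159 CPM in mice 1 to 4. Syt1, the calcium sensor of transmitter release, had 1075, 835, 939 and 913 CPM. Mouse 1 was lowest for the former gene and highest for the latter. Rbfox3, whose product was the target of the sort, was modest in level, at 42.5, 54.7, 66.6 and 52.2 CPM. Tubb3, a neuronal tubulin, spread most among those named, at 328, 219.6, 167 and 139.8 CPM.

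Both principal transmitter classes were present. The list of 11 glutamatergic markers summed to 1306, 1135, 1182 and 1218 CPM, and that of 14 GABAergic markers to 1293, 1259, 1081 and 1179 CPM. Of the glutamate transporters, Slc17a7, the vesicular transporter of most cortical pyramidal cells, had 157, 128, 130.2 and 124 CPM. Slc17a6, the transporter typical of thalamus and other subcortical regions, had 29.3, 11.4, 22.8 and 27.7 CPM, and mouse 2 was the low one. Gad1, which makes GABA, had 649, 663, 517 and 578 CPM. Per length of transcript, Gad1 reached 329 ± 30.0 TPM (counts per transcript length, scaled to the same total in each mouse; mean ± SD, n = 4 mice) against 104 ± 9.21 TPM for Slc17a7. The GABA vesicle transporter Slc32a1 stood at only 5.80 ± 0.491 TPM. Levels of marker genes are not numbers of cells.

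The transcription factors of cortical projection neurons named here were all above the floor. Tbr1, a factor of deep-layer glutamatergic cells, had 35.1, 38.4, 47.9 and 41.4 CPM. Neurod6, a pyramidal factor, had 51.1, 44.6, 76.2 and 61.6 CPM. Markers of every layer were found: the layer 2/3 list summed to 572 to 645 CPM, the layer 4 and layer 5 intratelencephalic list to 173 to 201 CPM, the layer 5 extratelencephalic and near-projecting list to 187 to 288 CPM, and the layer 6 and 6b list to 237 to 251 CPM. Among single genes, Calb1 (upper layers) had 229, 226, 268 and 248 CPM, and Cux2 (upper layers) ran from 7.73 CPM in mouse 1 to 12.7 CPM in mouse 4. Rorb, the layer 4 nuclear receptor, had 24.9, 32.2, 55.2 and 37.2 CPM. Fezf2, which specifies subcerebral projection neurons, had 25.9, 21.5, 19.7 and 17.4 CPM. Tle4 and Foxp2, of layer 6, had means of 98.0 ± 9.58 and 27.6 ± 8.41 CPM.

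The lists of cortical projection neurons ranged over at most 1.54-fold between mice. The general GABAergic list, at 1.20-fold, and the Lamp5 and Ndnf list, at 1.37-fold, lay within that range, and the Sst, Vip and Pvalb lists lay above it. The Sst list, for interneurons that make somatostatin, summed to 1120, 655, 480.1 and 474 CPM, a range of 2.36-fold. The Vip list summed to 744.5, 407, 287 and 362 CPM, a range of 2.59-fold, and the Pvalb list to 212, 204, 123 and 134 CPM, a range of 1.72-fold. The name genes made up most of the Sst and Vip sums. Sst itself had 859, 478, 325 and 330.3 CPM, and Vip 702, 377, 261 and 335 CPM. In both cases mouse 1 was far above the others, which was seen in both of its libraries (852 and 868 CPM for Sst, 692 and 717 CPM for Vip). Npy, another interneuron peptide, split the mice differently, with 422 and 390.0 CPM in mice 1 and 2 and 205 and 203 CPM in mice 3 and 4. Pvalb, the calcium buffer of fast-spiking cells, had 27.2, 37.0, 21.7 and 22.7 CPM. Lamp5, of neurogliaform and some pyramidal cells, had 367, 402, 285 and 261 CPM.

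Markers of neurons in regions next to the dissected piece gave a mixed record, and whether their transcripts came from cortex or from beside it was not tested. Penk, an opioid peptide of striatal neurons that cortical cells also make, had 218, 175, 99.9 and 129 CPM, and Drd1, a dopamine receptor, had 34.1, 44.0, 42.9 and 34.0 CPM. The 12 striatal markers summed to 434 to 499 CPM, with 9 of 12 past the filter on low counts. Besides these genes, Pdyn, another opioid peptide precursor, had 123, 126, 101 and 84.8 CPM, and Pde10a, a phosphodiesterase, 44.98, 56.2, 140 and 94.1 CPM. Drd2 and Adora2a, of the indirect striatal pathway, were near the floor: Drd2 had 0.0868, 0.765, 0.576 and 0.934 CPM, and Adora2a had 0, 0.437, 0 and 0 CPM. The list of 5 olfactory bulb genes summed to 14.6 to 20.4 CPM, with 2 of the 5 at or under the floor.

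Non-neuronal markers were low, with exceptions by cell type. Cldn5, the tight-junction protein of brain endothelium, had no count in any mouse, which allows at most 0.328 CPM in the shallowest mouse, and the 11 endothelial and mural genes summed to 12.8 to 18.7 CPM. Gfap, the intermediate filament of astrocytes, had 0, 1.42, 0.0961 and 0.560 CPM, and the astrocytic water channel Aqp4 had 5.12, 2.19, 6.73 and 10.3 CPM. Slc1a2, the glial glutamate transporter, which some neurons also transcribe, was abundant at 462, 464, 520.5 and 468 CPM and made up much of the astrocyte list's 786 to 900.3 CPM. The microglial list of 11 genes summed to 162, 199.9, 206 and 202 CPM. Within it, P2ry12, a purinergic receptor of resting microglia, had 20.1, 28.2, 36.3 and 39.3 CPM, and Cx3cr1, the fractalkine receptor, 17.6, 34.5, 23.1 and 26.2 CPM. The red blood cell list summed to 2.71 to 13.1 CPM.

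Oligodendrocyte transcripts differed most among the glial lists of more than 5 genes. The 12 genes summed to 173, 405, 318 and 299.8 CPM, lowest in mouse 1 and highest in mouse 2. Mbp, myelin basic protein, had 73.4, 153, 113 and 96.7 CPM. Mog, a late myelin glycoprotein, had 2.43, 23.1, 14.8 and 9.99 CPM. Mobp stayed level, at 33.3, 38.9, 35.3 and 33.4 CPM. The lineage factors Sox10 and Olig2 were at most 0.934 and 1.73 CPM. Pdgfra, the receptor of oligodendrocyte precursors, had 5.82, 5.79, 17.4 and 8.22 CPM, highest in mouse 3.

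**Figure D2:**
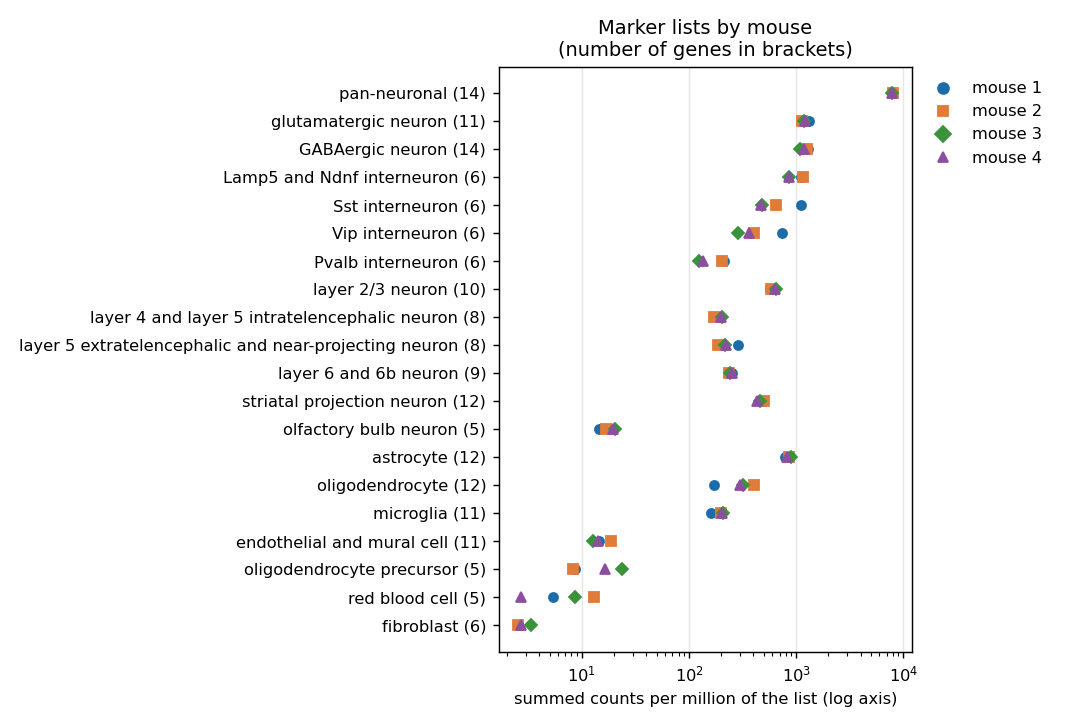
Summed CPM of each marker list in the 4 vehicle mice on a log axis, 1 symbol per mouse, with the number of genes of the list in brackets. The pan-neuronal sums lie on top of each other, from 7865 to 8023, while the Sst, Vip and oligodendrocyte sums are spread over more than 2-fold.

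The transcript pool was broad. The most counted gene took 2.84 ± 0.376% of counts, the top 10 genes 7.54 ± 0.631% and the top 1000 genes 46.6 ± 0.685% (SD, n = 4 mice). It took 1185 ± 39.2 genes to reach 50% of the counts and 6331 ± 128 to reach 90%. A mean of at least 1 CPM was found for 16307 genes, of which 12909 were protein-coding, and at least 1000 CPM for 48 genes, of which 45 were protein-coding.

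The top of the list mixed nuclear noncoding RNA, RNA-processing genes and synaptic genes. Malat1, a long noncoding RNA of nuclear speckles, was the most counted gene in every mouse, at 22879, 29278, 30380 and 31091 CPM. Rsrp1, an arginine and serine rich protein gene, followed with 10624, 13388, 12846 and 14135 CPM. Mouse 1 was lowest for both genes. Snhg11, a noncoding host of small nucleolar RNAs that is strong in neurons, had 8490, 9534, 10722 and 10418 CPM. Meg3, an imprinted noncoding RNA, had 3842, 5095, 5731 and 5377 CPM. Gria2, the AMPA receptor subunit that blocks calcium entry, had 4330, 4869, 5205 and 5698 CPM, so that a single receptor subunit ranked among the 5 most counted genes. The RNA-processing genes Sf3b1 (a core part of the U2 spliceosome particle, mean 2130 ± 183 CPM) and Pnisr (a speckle protein, 1631 ± 185 CPM) and Ogt (the enzyme that adds GlcNAc to nuclear proteins, 1566 ± 172 CPM) were also in the top 20.

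Other highly counted genes had varied roles. Cpe, the carboxypeptidase that trims neuropeptide precursors, had 3071, 1906, 1782 and 1894 CPM, with mouse 1 alone at the top. Gpm6a, a membrane glycoprotein of growing neurites, had 3004, 1830, 2064 and 2251 CPM. Calm2, a calmodulin gene, had a mean of 2218 ± 72.0 CPM. Ndrg4 had 3384, 3001, 2669 and 2740 CPM and Ndfip1, an adaptor of ubiquitin ligases, 3322, 2189, 2303 and 2519 CPM. Serinc1 (1820 ± 325), Zwint (1756 ± 334), Zcchc18 (1655 ± 114), Syt11 (1638 ± 447) and Ttc3 (2043 ± 193) were also among the 20 by mean CPM. Malat1 and Ttc3, and below Mdh1, Aldoa, Cdkn1a, Thoc6, Miat, Snhg14, Kcnq1ot1, Ube3a, Snrpn, Bdnf, Dusp1, Rnpep, mt-Co1 and mt-Nd5, overlap an antisense gene in the annotation. Counting was not stranded, so reads of both strands there cannot be told apart.

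**Figure D3:**
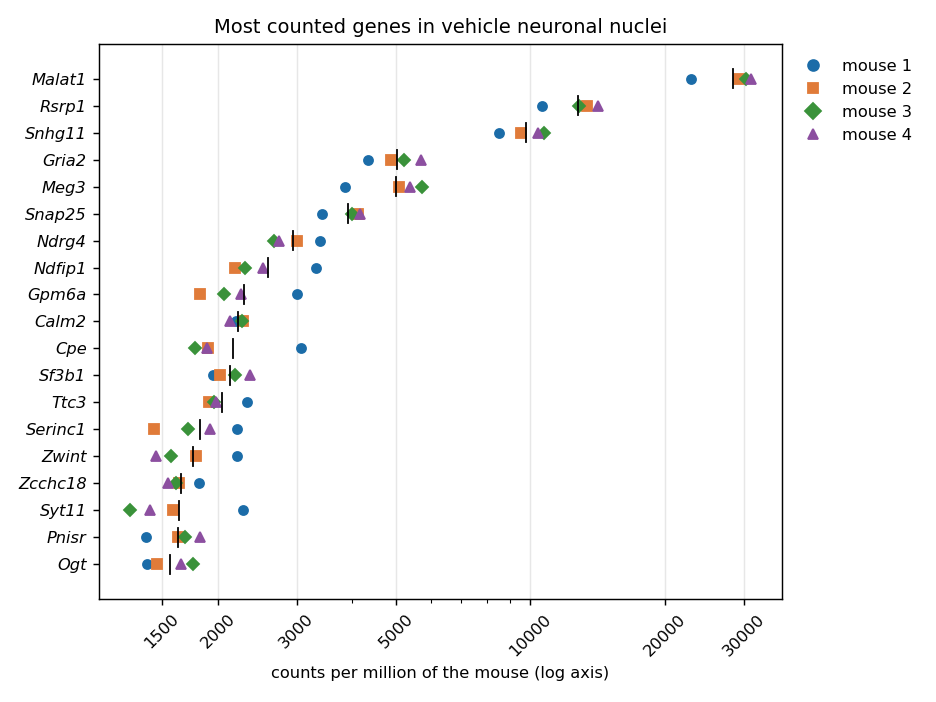
Genes among the 20 with the highest mean CPM, by mouse, on a log axis. The vertical bar is the mean of 4 mice. Malat1 stands alone at the right, between 22879 and 31091, and mouse 1 is to the right of the others for Cpe, Gpm6a, Ndfip1 and Syt11.

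Per length, short messenger RNAs moved up. Malat1 remained first at 17088 ± 2697 TPM and Rsrp1 was second at 15983 ± 2290 TPM, with Malat1 above Rsrp1 in each of the 4 mice. Among protein-coding genes Calm2 came next, at 6333 ± 226 TPM, followed by Cpe at 3456 ± 873 TPM, Gpm6a at 2973 ± 606 TPM and Sst at 2863 ± 1351 TPM. Cpe was above Gpm6a in each of the 4 mice, whereas Sst was first of the 3 in mouse 1 and last in mice 3 and 4. Prnp, the prion protein gene, stood at 2635 ± 618 TPM, Itm2b at 2305 ± 605 TPM and Npy at 2237 ± 798 TPM. Scg5, a chaperone of prohormone convertase, had 1751 ± 347 TPM. The metabolic genes Mdh1 (malate dehydrogenase, 1743 ± 299 TPM), Slc25a4 (the ADP/ATP carrier, 1642 ± 260.2 TPM), Aldoa (a glycolytic aldolase, 1634 ± 399 TPM) and Tecr (a fatty acid elongation enzyme, 1661 ± 544 TPM) were close to each other and overlapped. Stmn3 (1818 ± 308 TPM) and Srsf7, a splicing factor (1628 ± 241 TPM), were among the same 20.

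By class of gene, protein-coding genes took 93.5, 92.2, 91.3 and 91.4% of counts in mice 1 to 4. Long and other noncoding RNA genes took 4.93, 5.97, 6.42 and 6.43%, and mouse 1 was below the other 3. Pseudogenes took 0.429 ± 0.0148%, small RNA genes 0.0235 ± 0.00374% and ribosomal RNA with its pseudogenes 0.00936 ± 0.00128%. Single-exon features with no RefSeq type took 0.595, 0.686, 0.967 and 0.949%, so mice 3 and 4 were above mice 1 and 2. Genes that span at least 100 kb, 2874 IDs, took 17.8 to 19.3% of counts. Only exonic reads were counted, so intronic RNA, a large share of nuclear RNA, is not in these values.

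The 15 matched long noncoding RNAs summed to 36519, 45461, 48784 and 48861 CPM, of which Malat1 was the larger part. Miat, a speckle-like noncoding RNA of neurons, had 536, 685, 704 and 674 CPM. Kcnq1ot1, the noncoding RNA of an imprinted cluster, had 179.6, 187, 311 and 321 CPM, and Rian, the neighbour of Meg3, 202, 259.8, 375 and 364 CPM. Snhg14, the long transcript antisense to Ube3a, had 57.7, 73.2, 135 and 165 CPM. All 3 were low in mice 1 and 2 and high in mice 3 and 4. Neat1, the scaffold of paraspeckles, was scarce at 5.04, 17.6, 12.7 and 15.9 CPM. Ftx, beside Xist, had 246, 233, 306 and 334 CPM. Xist, the RNA that coats the inactive X chromosome, had 0.695, 0, 1.54 and 0 CPM, and the Y-linked translation factor Eif2s3y had 376, 397, 523 and 601 CPM.

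Of the imprinted genes, Ube3a, a ubiquitin ligase, followed Snhg14 in its order across mice, with 184, 207, 313 and 346 CPM. The pair overlaps on opposite strands, so unstranded counts do not give independent values for it. Snrpn, in the same cluster, was level, at 443, 414, 444 and 403 CPM. Nap1l5 had the highest level per length of the imprinted list, at 1463 ± 116 TPM.

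RNA from the mitochondrial genome was 0.0171, 0.0187, 0.0701 and 0.0530% of counts in mice 1 to 4. mt-Nd1, a subunit of complex I, had 33.3, 37.3, 137 and 102 CPM, mt-Cytb, of complex III, 29.6, 39.1, 157 and 129 CPM, and mt-Co1, of complex IV, 34.6, 41.0, 144 and 114 CPM. Mice 3 and 4 were above mice 1 and 2 for each, without overlap. The other mitochondrial messenger RNAs were lower: mt-Nd4 had 7.90 to 53.7 CPM and mt-Nd5 8.63 to 38.0 CPM. Of the 13, 4 were at or under the floor in every mouse, and mt-Co2 had at most 0.437 CPM and mt-Co3 at most 1.25 CPM. The mouse nuclear genome holds a nearly identical copy of part of the mitochondrial genome, and how reads that fit both places were treated is not given in the sources used here, so these values are uncertain.

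Nuclear genes of the respiratory chain were counted far more. The 76 oxidative phosphorylation genes summed to 11642, 11651, 9922 and 9127 CPM and the 86 ribosomal protein genes to 1858, 1990, 1772 and 1661 CPM. Per length these were 24786 ± 2176 and 4042 ± 253 TPM. Atp5b, the catalytic subunit of ATP synthase, had 1556, 1443, 996 and 978 CPM, and Cox8a, a small subunit of complex IV, had 174, 185, 138 and 115 CPM. For both genes mice 1 and 2 were above mice 3 and 4, the reverse of the mitochondrial transcripts.

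Receptors for the main transmitters were all represented. Htr2a, the serotonin 2A receptor, had 112, 137, 119 and 136 CPM. Per length it was the highest of the 14 serotonin receptor genes, at 94.3 ± 10.8 TPM, with Htr1f next at 79.2 ± 15.9 TPM, and these neighbours overlap between mice (80.7 to 105 and 66.4 to 99.0 TPM). Htr1a at 20.5 ± 4.99 and Htr3a at 18.2 ± 6.43 TPM formed an overlapping pair below them. Htr5a had 10.7 ± 1.48 TPM and Htr2c 5.33 ± 1.24 TPM. Htr3b had no count in any mouse. Gria2 led the AMPA receptor subunits at 1358 ± 197 TPM, ahead of Gria3 at 244 ± 24.0, Gria1 at 161 ± 15.4 and Gria4 at 142 ± 14.1 TPM, of which the last 2 overlap. Of the NMDA receptor, the obligatory subunit Grin1 had 109 ± 9.00 TPM, Grin2a 73.0 ± 10.8 TPM and Grin2b 51.7 ± 5.13 TPM. Grm7, a presynaptic receptor, led the metabotropic glutamate receptors at 227 ± 20.3 TPM.

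The spread between mice was several times that between libraries. The biological coefficient of variation, edgeR's common estimate of the relative spread beyond counting error, was 19.4% between mice over 14744 genes and 3.39% between the libraries of a mouse. The median SD of log2 CPM over the 4 mice was 0.25, from 0.08 at the 5th to 0.82 at the 95th percentile of genes. It was 0.43 for genes of 1 to 10 CPM and 0.21, 0.18 and 0.20 in the steps from 10, 100 and 1000 CPM upward. A quasi-likelihood F test over the 8 libraries called 9488 of 15487 genes different among the 4 mice at an adjusted p under 0.05 (61.3%). Since the replicates in this test are the 2 libraries of a mouse, which are technical, it compares these 4 mice and says nothing of other mice. DESeq2's likelihood ratio test called 6268 genes.

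The most even genes were picked for their small spread among those with a mean of at least 20 CPM. Cstf2t, a factor of 3′ end cleavage, had 105, 107, 106 and 106 CPM, and its SD on the log2 scale was 0.01. Utp18, of ribosome assembly, had 50.2, 50.2, 50.7 and 50.0 CPM, Usp25, a deubiquitinase, 56.0, 55.7, 56.8 and 56.5 CPM, and Pex5, the peroxisomal import receptor, 64.2, 64.7, 64.5 and 65.5 CPM. 6030458C11Rik, Ankrd26, Sidt1, Hp1bp3, Rnpep and Cnot10 made up the rest of the 10, with SDs up to 0.02. Among gene lists, the 22 synaptic vesicle and release genes summed to 9933, 9979, 9882 and 9981 CPM, a range of 1.01-fold in the sum alone. Of these members, 18 of 22 were called different among the mice (81.8%), between the 61.3% of all genes and the 90.9% of genes of 100 to 1000 CPM.

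The most uneven genes, picked in the same way for their large spread, were led by rapid response genes and mitochondrial transcripts. Fos, a transcription factor induced within minutes of neuronal firing, had 3.91, 15.0, 81.6 and 3.18 CPM and the largest SD, 2.13 on the log2 scale. Arc, a synaptic protein induced in the same way, had 26.0, 41.5, 284 and 35.7 CPM, and mouse 3 was alone at the top for both. Nr4a2, a nuclear receptor, went another way, at 2.00, 41.7, 28.1 and 29.4 CPM. Col11a1, a fibrillar collagen, had 12.2, 105, 80.2 and 77.7 CPM, again lowest in mouse 1. mt-Nd4 had 7.90, 7.98, 53.7 and 40.3 CPM, and mt-Cytb, mt-Co1, mt-Nd1 and 3110080E11Rik were also among the 10.

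**Figure D4:**
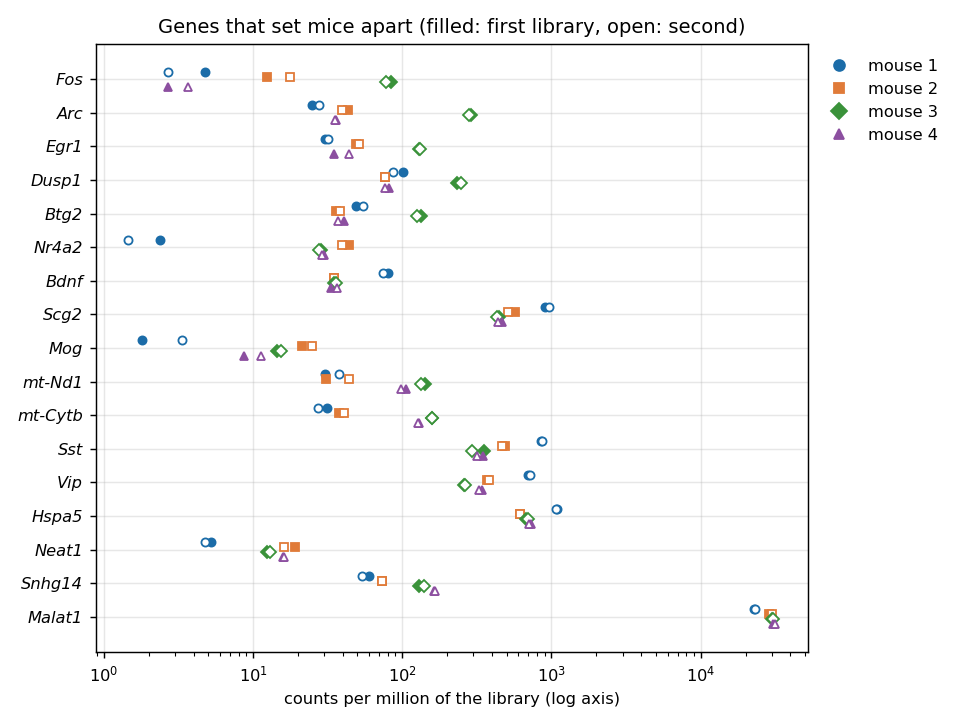
The CPM of 17 genes in each of the 8 libraries on a log axis, filled for the first and open for the second library of a mouse. The 2 libraries of a mouse lie close to each other for most genes, and for Fos and Arc both libraries of mouse 3 lie above those of the other mice.

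Each mouse was then set against the mean of the other 3 with edgeR. These 4 contrasts share their libraries, so they are not independent of each other. A value far out in 1 mouse moves the other 3 contrasts the opposite way. Calls also rise with level, from 38.7% by the F test at 1 to 10 CPM to 90.9% at 100 to 1000 CPM. The shares over all genes given for each mouse are not matched for level. Changes are log2 fold changes with their standard error. The errors and adjusted p of these contrasts rest on the 2 libraries of a mouse as replicates and do not measure the spread between mice.

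Mouse 1 differed for 6420 of 15487 genes (41.5%), with 3448 higher (22.3%) and 2972 lower (19.2%). This was the highest count of the 4 mice with all libraries, but not without its library 1 (4310, against 4695 for mouse 2 and 4734 for mouse 4) or without its library 2 (4932, against 4961 for mouse 4). With total counts as the only scaling, 41.2% of the called genes were higher in place of 53.7%, and the median of all genes moved from 0.01 to -0.07. Noncoding RNA was lower: 11 of 13 tested genes of the long noncoding list passed the test in that direction and 0 in the other (1 without library 2 of mouse 1). Malat1 was lower by a log2 fold change of -0.33, Meg3 of -0.42, Rian of -0.63, Snhg14 of -0.96 and Neat1 of -1.52 ± 0.20. Of 32 splicing factors and RNA-binding proteins, 22 were lower and 7 higher. The F test called 90.6% of this list, near the 90.9% of genes of 100 to 1000 CPM. Srsf5 and Hnrnpu, which bind nascent transcripts, were lower by -0.51 and -0.42, whereas Celf4, a neuronal RNA-binding protein, was higher by 0.61 ± 0.03. Without library 1 of mouse 1, or with DESeq2, 4 in place of 7 of these genes were higher.

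Clock genes were lower in mouse 1 as well, 14 of 19, with 1 higher. That 1 call was lost under total counts, without the filter on low counts, with DESeq2, and without either library of mouse 1, library 2 of mouse 2 or 3, or library 1 of mouse 4. Per2, a repressor of the clock, was at -1.02 ± 0.10 (adjusted p = 3e-15), and Nr1d2, a REV-ERB receptor, was at -0.85 ± 0.07. Cry2, Per2's partner, was at -0.16 ± 0.04. Heat shock genes were higher, 8 of 12, with 0 lower (1 under total counts): Hspa8, a constitutive chaperone, rose by 0.96 ± 0.04, Hspa5, the chaperone of the endoplasmic reticulum, by 0.76 ± 0.03 and Hsp90ab1 by 0.76 ± 0.03.

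Genes of the Sst and Vip lists were higher in mouse 1. Sst was higher by 1.28 ± 0.04 (adjusted p = 3.13e-47), Crhbp, a binding protein of corticotropin-releasing hormone, by 1.20 ± 0.06, Vip by 1.21 ± 0.03 and Htr3a by 1.03 ± 0.19. Sst, Crhbp and 2 others made 4 of 6 genes of the Sst list, with 0 lower, and 3 of 4 tested genes of the Vip list were higher. Of the 14 genes of the GABAergic list, 3 were higher (5 without library 1 of mouse 1) and 0 lower, or 1 lower under total counts. The 3 higher were near the share of all genes tested, of which 22.3% were higher and 19.2% lower in mouse 1. The Lamp5 and Ndnf list had 2 higher and 1 lower of 6, and the Pvalb list 3 higher and 1 lower of 6. Both lower calls were lost without library 1 of mouse 1. That of the Pvalb list was also lost with DESeq2, and without library 2 of mouse 1 or library 1 of mouse 2 or 3. Cpe was higher by 0.79 ± 0.02 and Scg2, a granin of dense-core vesicles, by 1.04 ± 0.03. Bdnf, a growth factor, was higher by 1.21 ± 0.08. Oligodendrocyte genes were low in the same mouse, 8 of 10 tested with 0 higher, and Mog stood at -2.54 ± 0.24 and Mbp at -0.63 ± 0.07. The part of these transcripts in the other differences of mouse 1 was not tested.

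Activity-regulated genes went both ways in mouse 1, 9 of 30 higher and 10 lower. Arc was at -1.45 ± 0.09 and Egr1, a zinc-finger factor, at -0.97 ± 0.09, while Nptx2, a secreted pentraxin of synapses, was at 1.31 ± 0.24. Mitochondrial messenger RNAs, of which 7 of 13 passed the filter on low counts, were lower for 7 of 7, with mt-Cytb at -1.58 ± 0.09. Nuclear genes of oxidative phosphorylation were higher for 40 of 74 and lower for 11, with Atp5b at 0.55 ± 0.03. The 11 lower genes became 7 without library 1 of mouse 1 or library 1 of mouse 3 and 5 without library 2 of mouse 1.

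The single genes furthest from the other mice were, on the low side, Xlr3b (-4.68 ± 0.38), an X-linked gene of a family with near-identical copies whose reads are uncertain, Nr4a2 (-3.94 ± 0.21), Col11a1 (-2.75 ± 0.11), Mog and Gm37717 (-2.43). On the high side were Pthlh (1.48 ± 0.15), a peptide hormone, Rbp4 (1.40 ± 0.06), a retinol carrier, Cdkn1a (1.38), a cell cycle inhibitor, and Lhfpl5 (1.35).

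Mouse 2 differed in 5036 genes (32.5%), 2487 higher (16.1%) and 2549 lower (16.5%). Without its own library 1 the total was 2899. Oligodendrocyte genes were higher, 8 of 10 with 0 lower: Mog by 1.67 ± 0.17 and Mbp by 0.70 ± 0.06. Several receptor and adhesion lists held more lower than higher members. GABA-A receptor genes were lower for 8 of 12 and higher for 1, with Gabra2 at -0.92 ± 0.06, and 11 of 18 synaptic adhesion genes were lower with 0 higher. Of the 7 metabotropic glutamate receptors tested, 5 were lower with 0 higher, among them Grm8 at -0.51 ± 0.08, and 3 were lower without either library of mouse 2. Genes of oxidative phosphorylation were higher for 37 of 74 and lower for 2, and the 7 mitochondrial messenger RNAs were lower for 7 of 7. Splicing factors were lower for 16 of 32 and higher for 1, and activity-regulated genes lower for 12 of 30 and higher for 3. Without library 1 of mouse 2 these were 8 and 7 lower. The comparison for the activity-regulated genes includes mouse 3, the highest for many of them: Arc in mouse 2 was above its level in mice 1 and 4. Among single genes, Glra3, a glycine receptor subunit, was at -1.92 ± 0.22, Vwc2l at -1.48, and Slc17a6 at -1.24 ± 0.15. The highest were Nr4a2 (1.80 ± 0.13), Mog, Xlr3b (1.57), Ighm (1.42), an immunoglobulin heavy chain, and Col11a1 (1.28). Mouse 1 was very low for Nr4a2 and Col11a1, and against mice 3 and 4 alone mouse 2 was closer, with 41.7 against 28.1 and 29.4 CPM for Nr4a2 and 105 against 80.2 and 77.7 CPM for Col11a1. Xlr3b had 12.3 CPM in mouse 2, below the 33.1 CPM of mouse 3 and above the 0.434 and 4.58 CPM of mice 1 and 4.

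Mouse 3 differed in 4535 genes (29.3%), 2302 higher (14.9%) and 2233 lower (14.4%). Under total counts, 61.5% of the called genes were higher in place of 50.8%. Without its library 1 the total was 2632, and without its library 2 it was 2889. Of activity-regulated genes, 17 of 30 were higher and 2 lower, against a median log2 fold change of 0.41 for the list and 0.01 for all genes. Fos was higher by 3.79 ± 0.12 (adjusted p = 2.51e-42) and Arc by 3.03 ± 0.06 (adjusted p = 7.25e-59). In single libraries Fos had 84.3 and 78.3 CPM in mouse 3, against 2.69 to 17.6 CPM in the other 6 libraries. Fos was picked for its spread, and the libraries of a mouse are technical, so this gap describes 1 mouse. Egr1 had 129 and 132 CPM against 30.3 to 51.3 CPM. Dusp1, a phosphatase of MAP kinases, had 231 and 249 CPM against 76.3 to 100.5 CPM, and Btg2, an antiproliferative gene, 133 and 126 CPM against 36.0 to 54.5 CPM. Nr4a1, a nuclear receptor, had 16.8 and 16.6 CPM against 3.65 to 6.70 CPM, and Npas4, a neuron-specific factor, 4.03 and 4.26 CPM against 0 to 0.909 CPM. The 2 members called lower, Bdnf and Scg2, were high in mouse 1 and near the level of mouse 4 in mouse 3: Bdnf had 77.4, 34.97, 35.4 and 34.8 CPM in mice 1 to 4, and Scg2 927, 539, 440.2 and 453 CPM.

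The stretch before the transcript start is shown for 4 of these genes because several immediate early genes are textbook targets of CREB, a factor that binds the cAMP response element TGACGTCA or its half-site TGACG. Of 7 list members that rose over 2-fold, were highest in mouse 3 and had a mean of at least 5 CPM, 4 had an entry in the promoter table used here, Fos, Nr4a1, Btg2 and Dusp1. Each line is the 200 bases upstream of the RefSeq start (GRCm38.p6), 5′ to 3′ on the strand of the gene, and capitals mark TGACG on either strand, which reads CGTCA on the other strand and lies inside the full element.
Fos, chr12:85473690-85473889, plus strand: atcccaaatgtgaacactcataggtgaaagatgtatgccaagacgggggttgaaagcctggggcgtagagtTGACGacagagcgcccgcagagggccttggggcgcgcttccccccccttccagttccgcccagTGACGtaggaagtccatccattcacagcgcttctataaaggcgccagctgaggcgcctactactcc
Nr4a1, chr15:101266646-101266845, plus strand: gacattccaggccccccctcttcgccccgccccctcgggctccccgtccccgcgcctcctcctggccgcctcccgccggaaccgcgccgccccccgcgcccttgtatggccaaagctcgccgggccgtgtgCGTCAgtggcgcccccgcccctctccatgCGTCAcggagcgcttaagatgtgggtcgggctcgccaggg
Btg2, chr1:134079156-134079355, minus strand: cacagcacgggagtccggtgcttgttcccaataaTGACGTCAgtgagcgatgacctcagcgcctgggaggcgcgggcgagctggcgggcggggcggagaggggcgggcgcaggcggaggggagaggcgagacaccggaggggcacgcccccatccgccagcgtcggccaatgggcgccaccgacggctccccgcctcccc
Dusp1, chr17:26508473-26508672, minus strand: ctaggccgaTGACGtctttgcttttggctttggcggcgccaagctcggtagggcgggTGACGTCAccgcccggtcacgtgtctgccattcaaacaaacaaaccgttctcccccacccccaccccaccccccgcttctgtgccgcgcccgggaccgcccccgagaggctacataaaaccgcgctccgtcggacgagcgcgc
Fos and Nr4a1 have 2 half-sites each and no full element, and Btg2 and Dusp1 have 1 full element each, counted as 2 half-sites that overlap. Dusp1 has 1 more half-site further upstream. Of all 32851 promoters in the table, 15.7% hold TGACG on either strand in the same window and 1.47% the full element. A match is a description of the letters and not of binding.

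Mitochondrial messenger RNAs were also higher in mouse 3, 7 of 7 tested, and mt-Nd4 stood at 1.93. Long noncoding RNAs were higher for 9 of 13 with 0 lower, and splicing factors for 17 of 32 with 1 lower (0 without library 1 of mouse 3 or with DESeq2). Among the higher ones was Luc7l3, of the U1 particle, at 0.38 ± 0.03. Oxidative phosphorylation genes were lower for 25 of 74 and higher for 7, and 4 were higher without library 1 of mouse 3. Other extremes were Xlr3b (3.44 ± 0.19) and Gm37717 (1.77) on the high side, and Lsp1 (-1.58), Pthlh (-1.36 ± 0.20), Gstm4 (-1.27), AC121603.3 and Atp7a on the low side.

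Mouse 4 differed in 5168 genes (33.4%), 2715 higher (17.5%) and 2453 lower (15.8%). Of the RNA lists, 8 of 13 long noncoding RNAs were higher with 0 lower, 18 of 32 splicing factors were higher with 2 lower (1 without library 1 of mouse 4, and 3 without library 1 of mouse 1), and 7 of 7 mitochondrial messenger RNAs were higher. Snhg14 was higher by 0.98 ± 0.06, Ube3a by 0.59 ± 0.04 and mt-Cytb by 1.17 ± 0.07. Oxidative phosphorylation genes were lower for 48 of 74 and higher for 2, with Cox8a at -0.52 ± 0.06 and Atp5b at -0.43 ± 0.03. Activity-regulated genes were lower for 13 of 30 and higher for 3: Fos was at -2.41 ± 0.23, Arc at -0.93 ± 0.09 and Dusp1 at -0.61 ± 0.07. Mouse 3, high for all 3, is in the comparison. Arc in mouse 4 was above mouse 1 and below mouse 2, Dusp1, at 79.1 CPM, was between mouse 2 (76.6 CPM) and mouse 1 (94.6 CPM), and Fos, at 3.18 CPM, was near mouse 1 (3.91 CPM). Other low genes were Adamts1, Thoc6 and Crh (-1.10), the corticotropin-releasing hormone. The high ones were Gm42635 (1.45), Gm44831, Gm44027, mt-Nd4 (1.41) and Nxph2 (1.24 ± 0.16), a neurexin ligand.

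**Figure D5:**
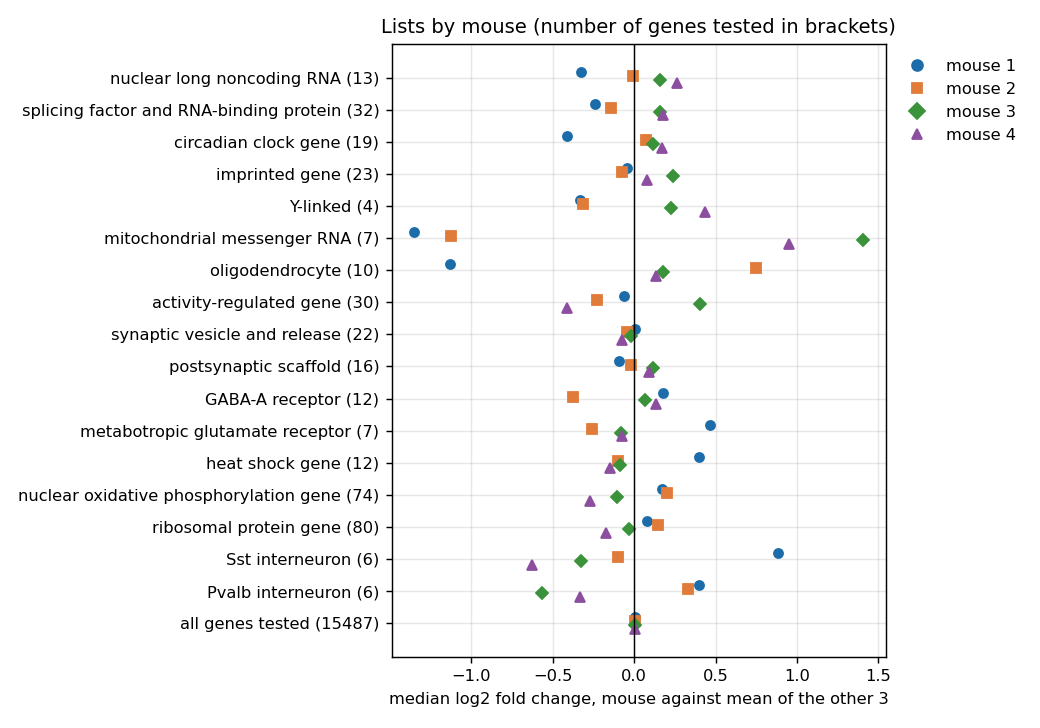
Median log2 fold change of each gene list in each mouse against the mean of the other 3, with the number of tested genes in brackets and a line at 0. Mouse 1 lies left of 0 for the long noncoding, splicing and clock lists, and the mitochondrial list runs from -1.35 in mouse 1 to 1.41 in mouse 3.

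Beside these lists, the mitochondrial share ran from 0.0171% in mouse 1 to 0.0701% in mouse 3, the long noncoding share from 4.93% in mouse 1 to 6.43% in mouse 4, and the oligodendrocyte sum from 173 CPM in mouse 1 to 405 CPM in mouse 2. The part of these in the differences between mice was not tested.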

How the data were processed

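Nuclear RNA was measured in the 8 vehicle libraries. Whole-number read counts per gene were deposited by the authors, made with featureCounts 2.0.0 over exons of GRCm38 gene models, per the file headers; the RNA aligner is not given in the sources used here, and the call recorded in the headers sets no strand option. Trim Galore 0.6.5 is among the tools of the submitters' processing notes. For levels, both libraries of each mouse were added up and given as CPM of the total or as TPM from the exonic length in the file. Gene symbols were found for 99.5% and a RefSeq type for 69.6% of 55401 IDs. Tests used edgeR 4.0.16 in R 4.3.3 (filterByExpr, TMM, quasi-likelihood, prior count 2, Benjamini-Hochberg, threshold 0.05) with libraries as replicates, and DESeq2 1.42.0 as an alternative. Library numbers did not pair the samples: deviations of same-numbered libraries correlated at -0.0168 to 0.0143. The scripts were tested on simulated data. Named genes were the 20 highest by CPM and by protein-coding TPM, the 10 most and least variable at a mean of at least 20 CPM, 5 per direction and mouse at a mean of at least 10 CPM, and members of the gene lists. The members and lists were chosen with earlier results of these data known, and some list members were named after their values were seen. Some genes that these rules select are not reported here.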

Additional observations from a re-analysis of the deposited data

Results flagged for a closer look

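In a group of 4 mice, a mouse was singled out when its gap to the nearest of the others, divided by the range of the 4, exceeded Dixon's critical value for 4 samples. Chance alone does this in about 1 of 20 groups. It occurred in 20 of 219 groups, 9 times for mouse 1, 4 times for mouse 2, 7 times for mouse 3 and 0 times for mouse 4, and the groups are not independent, since many genes were picked for their spread.

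Mouse 1 was far above the others for 7 genes. Cpe was at 3071 CPM against 1782 to 1906, Itm2b, a membrane protein cut by furin, at 2169 against 1236 to 1358, and Scg5 at 878 against 572 to 606. Ttc3 was at 2329 CPM against 1907 to 1976, Bdnf at 77.4 against 34.8 to 35.4, Lhfpl5 at 26.0 against 9.51 to 11.5, and the AMPA receptor subunit Gria1 at 273 against 215 to 225. The same mouse was far below the others for the microglial list, at 162 CPM against 199.9 to 206, and for the clock list, at 1374 against 1763 to 1825.

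Mouse 2 was low for the glycine receptor subunit Glra3, at 4.70 CPM against 16.8 to 18.2, for the serotonin receptor Htr2c, at 7.87 against 12.8 to 13.7, and for the metabotropic glutamate receptor list, at 898 against 1065 to 1091. It was the only mouse with a count for Adora2a, at 0.437 CPM against 0.

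Mouse 3 was high for activity-regulated genes: Fos at 81.6 CPM against 3.18 to 15.0, Arc at 284 against 26.0 to 41.5, Dusp1 at 239 against 76.6 to 94.6, Btg2 at 129.9 against 37.2 to 51.1, Nr4a1 at 16.7 against 4.58 to 6.01 and Npas4 at 4.13 against 0.109 to 0.654. Slc1a2 was at 520.5 CPM in it against 462 to 468.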

How the results depend on the processing

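Of 532 recalculated log2 fold changes of the genes named for a single mouse, 532 kept their direction and their call. These genes were picked as the furthest out in the same data, so this outcome was likely beforehand. Fits in which a gene was not tested do not enter. Counts of called genes moved more. DESeq2 called 6268 genes among the 4 mice and 4207, 2817, 2308 and 3000 for mice 1 to 4, and a threshold of 0.01 called 2969 for mouse 3. Leaving out 1 library gave 4310 to 6320 genes for mouse 1, 2899 to 4874 for mouse 2, 2632 to 4463 for mouse 3 and 3511 to 5110 for mouse 4. For the test among mice, leaving out a library or a mouse gave 6609 to 9196. A fit with the library number as a replicate block, a paired analysis of libraries that share only a number, called 9617 genes among the mice and 6491, 5152, 4661 and 5257 for mice 1 to 4. The biological coefficient of variation was 17.6% with the second libraries alone and 16.8 to 20.4% without single mice, lowest without mouse 1. Class shares depend on the unit. Protein-coding genes took 94.9% of counts without Malat1, mitochondrial and ribosomal RNA genes, and 88.0% of TPM. Noncoding RNA took 4.88%, mitochondrial genes 0.146%, pseudogenes 2.05%, single-exon features 2.59% and small RNA genes 0.721% of TPM. A minimum of 10 counts left 16521 detected genes per mouse in place of 24380. Genes spanning at least 50 and 200 kb took 33.3 and 8.15% of counts. The cause of these shifts was not tested, apart from fewer libraries or genes where those were left out. Depth limits genes under about 1 CPM.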
